A study of Homo sapiens with 6 samples.

Results

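Manganese is an essential metal that damages the basal ganglia in excess, and the integrated stress response is a programme that cells start when protein folding, amino acid supply or mitochondria fail. Here 10 genes of that response were followed in the human neuroblastoma line SH-SY5Y, whose cells have catecholaminergic features. They are the transcription factors ATF4, DDIT3 (which encodes CHOP) and CEBPB, and 7 genes known as their effectors or feedback regulators, namely CHAC1, ASNS, SESN2, STC2, GDF15, TRIB3 and PPP1R15A. The genes were taken by name, and each probe set annotated to 1 of these symbols and no other was used. This gave 23 probe sets for the 10 genes, and all 10 were among the 13407 genes tested of 18132 on the array. The control group is 3 arrays from untreated cultures, and the manganese group is 3 arrays from cultures given 100 µM manganese for 24 h, which the labels describe as 1/5 of the LC50. Every array is of the same line, so the values describe this line at 1 dose and 1 time. The arrays of a group are labelled biological replicates, but nothing says whether the cultures were started separately, so p-values measure the spread between these samples.

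In the integrated stress response, kinases that sense different stresses phosphorylate the translation factor eIF2. Bulk protein synthesis then slows while translation of the ATF4 mRNA goes up, so much of the control of ATF4 lies at the protein level, which arrays do not read. ATF4 binds DNA as a dimer with C/EBP family proteins and switches on genes for amino acid supply and redox balance. It also induces CHOP, which can turn a lasting response towards cell death, and TRIB3 and PPP1R15A, which damp the response.

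On 10 noradrenergic markers tested, among them DBH, TH, PHOX2A and GATA3, the mean percentile within an array ran from 84.3 to 99.6, and 1 marker on the list was not tested. The 5 mesenchymal markers tested lay between percentiles 42.9 and 89.1, with THY1 at the top, and the 4 glial markers between 43.8 and 73.8. The mean level of these lists stayed between 10.72 and 10.78 on the log2 scale for the noradrenergic list, 5.58 and 5.74 for the mesenchymal list and 5.70 and 5.88 for the glial list across all 6 arrays. By limma 0 markers of the 3 lists were called at an adjusted p under 0.05, where 0.142% of all tested genes were, but single markers differed. SLC18A1, the vesicular monoamine transporter of chromaffin cells, was 0.52 higher in manganese with groups apart (adjusted p 0.188, 0.42 against control 2), and ISL1, a neuronal transcription factor, differed by -0.58 (adjusted p 0.351, -0.26 against control 2). These were 1 noradrenergic marker higher and 1 lower of the 10 at an unadjusted p under 0.05. Of all tested genes, 5.97% were higher and 6.85% lower at that p. PHOX2A differed by 0.22 and CHGA by -0.15. COL1A2, COL1A1, PRRX1 and DCN of the mesenchymal list differed by -0.16, 0.12, -0.12 and -0.14, and S100B, SOX10, ERBB3 and GFAP of the glial list by -0.056 to -0.027. The arrays differed in other respects. Control 1 stood apart on the first principal component, at -39.5 against -6.69 to 19.0 for the others. The 12 poly(A) spike-in probe sets, which read RNA added to each sample before labelling, averaged 6.14 in control 1 and 5.81 in control 3, against 7.79 in control 2 and 7.80 to 7.91 in manganese. Among the controls, only control 2 thus resembled the manganese arrays in spike-in signal, and changes against control 2 alone stand beside the main ones below. The arrays compare a transcript with the rest of the RNA, so a change in cell number and a change in RNA per cell cannot be told apart.

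All 10 genes had a higher mean in manganese, as did 54.1% of all tested genes, but the differences were small and none passed the test. Those of DDIT3 and PPP1R15A were only 0.10 and 0.030 on the log2 scale, and the other DDIT3 probe set gave -0.083. CHAC1 differed most, at 1.75-fold, with SESN2 at 1.58-fold and STC2 at 1.43-fold. The order of SESN2 and STC2 depended on the controls, since their log2 changes were 0.44 and 0.48 without control 1 and 0.34 and 0.54 against control 2, where ASNS, at 0.43, also exceeded SESN2. At a limma adjusted p under 0.05, 0 of the 10 genes were called, where 0.142% of all tested genes were called (19 of 13407, of which 18 were higher). The scaling of the arrays moved that total, to 38 higher and 12 lower with each array centred on its median and to 145 higher and 158 lower with centring on housekeeping genes. It also rested on single arrays, since limma called 43 genes without control 2 and 0 without control 3 or any 1 manganese array, fits in which 832 to 1223 genes had an unadjusted p under 0.05. At an unadjusted p under 0.05, 6 of the 10 genes were higher, and 5.97% of all tested genes were, while 0 of the 10 and 6.85% of all tested genes were lower. Those 6 were CHAC1, STC2, SESN2, ATF4, CEBPB and GDF15. In 5 of the 10 the 3 manganese arrays all lay above the 3 controls, against 10.5% of all tested genes.

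The median change of the 10 genes was 0.36 on the log2 scale, beside a median of 0.02 over all tested genes. Control 1 was the array with the lowest value for 8 of the 10, and for 37.2% of all tested genes. Without control 1 the median was 0.28, with 8 of 10 changes positive and 6 higher at an unadjusted p under 0.05, against 7.85% of all genes in that fit. Against control 2 alone the median was 0.26, with 9 of 10 positive and 4 higher at an unadjusted p under 0.05, against 4.89% of all genes. That fit has 1 control array, assumed to vary like the manganese arrays, from which alone its spread was estimated, so its p-values are weaker evidence than those of the full fit. With spike-in level as a term in the fit it was 0.29, with 9 positive and 2 of 10 (CHAC1 and STC2) higher at an unadjusted p under 0.05, against 2.22% of all genes. The part of control 1 and of the spike-in level in these differences was not tested further.

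**Figure D1:**
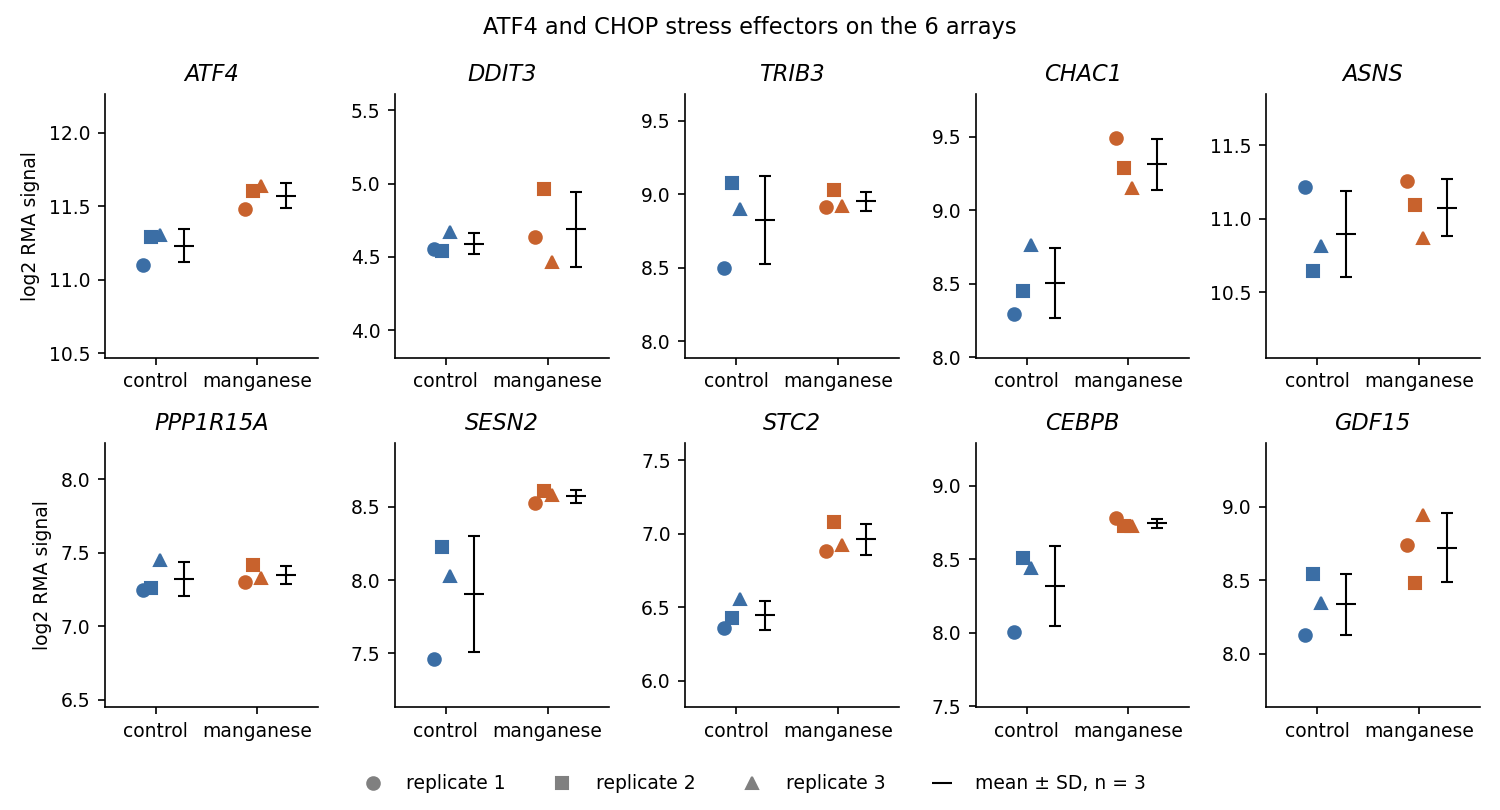
Log2 RMA signal of each gene (vertical axis, each panel spanning 1.8 log2 units) on the 3 control and 3 manganese arrays, with replicates as separate symbols and black bars for mean ± SD (n = 3). The groups do not overlap for ATF4, CHAC1, SESN2, STC2 and CEBPB, and control 1 (circle) is the lowest control in every panel but those of DDIT3 and ASNS.

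Among the transcription factors, ATF4, the hub of the response, read 11.10, 11.29 and 11.31 on control arrays 1 to 3 and 11.48, 11.60 and 11.64 on the manganese arrays. Each manganese array lay above each control. The log2 change was 0.34 with an SE of 0.11, a 95% interval of 0.09 to 0.60 and a limma adjusted p of 0.304. Against control 2 it was 0.28, and leaving out any 1 array kept it between 0.27 and 0.39. ATF4 has 1 probe set here, of the kind marked as able to cross-hybridise. The only probe set of PPP1R15A and the main probe sets of ASNS and GDF15 carry the same mark.

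CEBPB, a C/EBP protein that pairs with ATF4 and CHOP, read 8.01, 8.51 and 8.44 in control and 8.78, 8.73 and 8.72 in manganese. The groups did not overlap, and control 1 was the low array. Its change was 0.43 (SE 0.15, adjusted p 0.331), and 0.23 against control 2.

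DDIT3 showed no such difference. Its main probe set read 4.55, 4.54 and 4.67 in control and 4.64, 4.96 and 4.46 in manganese, so that manganese 2 was the highest array and manganese 3 the lowest of all 6. The change was 0.10 with a 95% interval of -0.23 to 0.43, and it turned to -0.040 without manganese 2. The other probe set gave -0.083 (SE 0.094). Both lay low on the arrays, at mean percentiles of 44.6 and 41.8, where the 40th percentile was the limit of the level filter, so the array read the CHOP mRNA near that limit.

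Other leucine zipper factors that pair with ATF4 or CHOP were fixed as a list of 14, and 13 were tested. ATF3, a stress-induced repressor that ATF4 and CHOP both act on, was the member past the threshold. It read 6.15, 6.29 and 6.26 in control and 7.47, 7.75 and 7.66 in manganese, and rose 2.63-fold (log2 change 1.39, SE 0.12, adjusted p 0.00597). Against control 2 its change was 1.34. Where each gene was read as the mean of its passing probe sets, the highest change on the list was 0.91. ATF3 thus rose by at most 0.91 there. Without control 3, without any 1 manganese array, against control 2 alone, or with spike-in level as a term, limma called 0 members of the list, while its change without control 3 was 1.41 and 4 of the 13 members were higher there at an unadjusted p under 0.05, against 3.97% of all genes. Of the other 12, 11 had positive changes, and the list median was 0.22, or 0.24 against control 2. JUN, at 0.53 and 0.46 against control 2, CEBPD, at 0.45 and 0.51, and JDP2, at 0.49 and 0.37, also had groups that did not overlap and did not pass. With ATF3 and ATF5, 5 of the 13 had groups apart with manganese higher, against 10.5% of all tested genes. At an unadjusted p under 0.05 in limma, 5 of the 13 were higher, against 5.97% of all tested genes. CEBPD lay low on the arrays, at a mean percentile of 43.1. Controls 2 and 3 read it at 4.28 and 4.26, under their own 40th percentiles of 4.37 and 4.40. CEBPD would not have passed the level filter without the manganese arrays, so little can be drawn from its groups lying apart. ATF5 differed by 0.42 with all controls but by 0.081 against control 2.

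**Figure D2:**
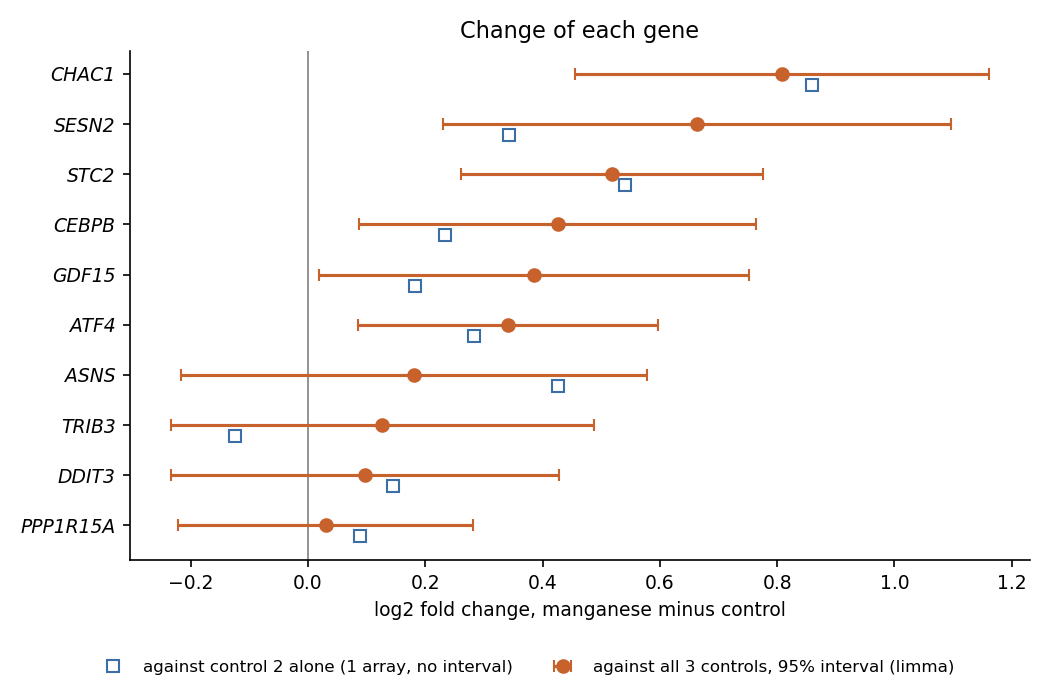
Log2 fold change of each gene (horizontal axis, manganese minus control) against all 3 controls with its 95% limma interval (filled circles), and against control 2 alone (open squares, 1 control array and no interval). CHAC1, STC2 and ATF4 sit at nearly the same place with either baseline, SESN2, CEBPB and GDF15 move towards 0, ASNS moves up and TRIB3 crosses 0.

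CHAC1 and ASNS are the 2 of the 10 genes whose upstream region held the letters of the element that ATF4 and C/EBP proteins bind, known as CARE. The 250 bases before the most upstream RefSeq start of each gene (GRCh38.p14) were searched for TGATGNAA on both strands, and all 10 genes had a sequence. The same letters occur in 3.19% of the 27305 regions of that length and in 1.61% of those whose genes were tested. The cAMP response element TGACGTCA, which reads the same on both strands, was found in 1 of the 10, PPP1R15A, in 1.75% of all regions and in 2.7% of those whose genes were tested. No match of either motif shared bases with the other. The stretches around the 3 matches are shown because they are where a shared control element would be looked for in these genes, with the match in capitals and each written along the strand of its gene. A match describes letters and not binding.

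CHAC1, chr15:40953222-40953309, plus strand, bases 249 to 162 before the start, CARE on the opposite strand:
CHAC1: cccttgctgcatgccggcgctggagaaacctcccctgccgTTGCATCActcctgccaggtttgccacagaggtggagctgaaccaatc
ASNS, chr7:97872429-97872516, minus strand, bases 108 to 21 before the start, CARE on the strand of the gene:
ASNS: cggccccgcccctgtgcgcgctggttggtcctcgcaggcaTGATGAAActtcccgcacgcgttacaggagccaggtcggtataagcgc
PPP1R15A, chr19:48872323-48872410, plus strand, bases 98 to 11 before the start, cAMP response element:
PPP1R15A: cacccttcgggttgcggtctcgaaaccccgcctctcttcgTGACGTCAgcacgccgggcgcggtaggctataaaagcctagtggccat

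CHAC1 encodes an enzyme that breaks down glutathione and is a target of ATF4. It read 8.30, 8.45 and 8.77 on the control arrays and 9.50, 9.29 and 9.15 on the manganese arrays. The lowest manganese array lay above the highest control. The change was 0.81 on the log2 scale (SE 0.15, 95% interval 0.45 to 1.16), and 0.537% of all tested genes had a larger increase. It ranked 71st of all genes by p and did not pass, with an adjusted p of 0.138. Against control 2 the change was 0.86, and without any 1 array it lay between 0.70 and 0.94. With centring on housekeeping genes it was 0.82 and passed, at an adjusted p of 0.0113. The second CHAC1 probe set, too dim to pass the filter at a mean percentile of 37.2, gave 0.24 (SE 0.15).

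ASNS, asparagine synthetase, is the classic target of ATF4 under amino acid shortage. Its main probe set read 11.22, 10.65 and 10.81 in control and 11.26, 11.09 and 10.87 in manganese. Control 1 lay above 2 of the 3 manganese arrays, so the groups overlapped. The change of 0.18 (95% interval -0.22 to 0.58, adjusted p 0.675) became 0.34 without control 1 and 0.43 against control 2, and was 0.058 without control 2. The 4 ASNS probe sets behaved alike, with changes of 0.14 to 0.35 against all controls and 0.42 to 0.52 against control 2.

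SESN2, a stress-induced sestrin that restrains mTORC1 signalling, read 7.47, 8.23 and 8.03 in control and 8.52, 8.60 and 8.58 in manganese. The manganese arrays lay close together above the controls, which were widely spread with control 1 lowest. The change was 0.66 (SE 0.19, adjusted p 0.264), 0.44 without control 1 and 0.34 against control 2. The other SESN2 probe set gave 0.55, or 0.20 against control 2, and its groups overlapped, as manganese 1 and control 2 both read 7.37.

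STC2 encodes stanniocalcin 2, a secreted glycoprotein induced in the unfolded protein response. It read 6.36, 6.42 and 6.55 in control and 6.88, 7.08 and 6.92 in manganese. The groups were well apart and no array stood out. The change was 0.52 (SE 0.11, 95% interval 0.26 to 0.78, adjusted p 0.169) and 0.54 against control 2. A second probe set gave 0.46, also with groups apart, and the third gave 0.17 with overlapping groups. Both were dim, at mean percentiles of 49.5 and 48.4.

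GDF15, a secreted stress cytokine, is read by 5 probe sets, and all 5 changes were positive, from 0.15 to 0.68. Its main probe set read 8.13, 8.54 and 8.34 in control and 8.74, 8.48 and 8.95 in manganese. Manganese 2 lay below control 2, and none of the 5 probe sets had groups apart. The main change was 0.39 (SE 0.16, adjusted p 0.373), and 0.18 against control 2. The probe set with 0.68 gave 0.20 against control 2, and another turned to -0.072. The probe set with 0.15 was dim, at a mean percentile of 44.3.

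Of the feedback regulators, TRIB3, a pseudokinase that inhibits ATF4 and CHOP, read 8.50, 9.08 and 8.90 in control and 8.91, 9.03 and 8.92 in manganese. The manganese arrays lay between the controls and below control 2. The change of 0.13 (95% interval -0.23 to 0.49) turned to -0.037 without control 1 and to -0.12 against control 2. A dimmer TRIB3 probe set read 5.04, 5.22 and 5.26 in control and 5.41, 5.43 and 5.39 in manganese. Its groups did not overlap and its change was 0.24, or 0.19 against control 2, so the 2 probe sets disagree in direction against that baseline.

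PPP1R15A encodes GADD34, which directs a phosphatase to eIF2 and so ends the response. It read 7.25, 7.26 and 7.45 in control and 7.30, 7.42 and 7.33 in manganese. All manganese arrays lay within the range of the controls. The change was 0.030 with a 95% interval of -0.22 to 0.28, and 0.089 against control 2.

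**Figure D3:**
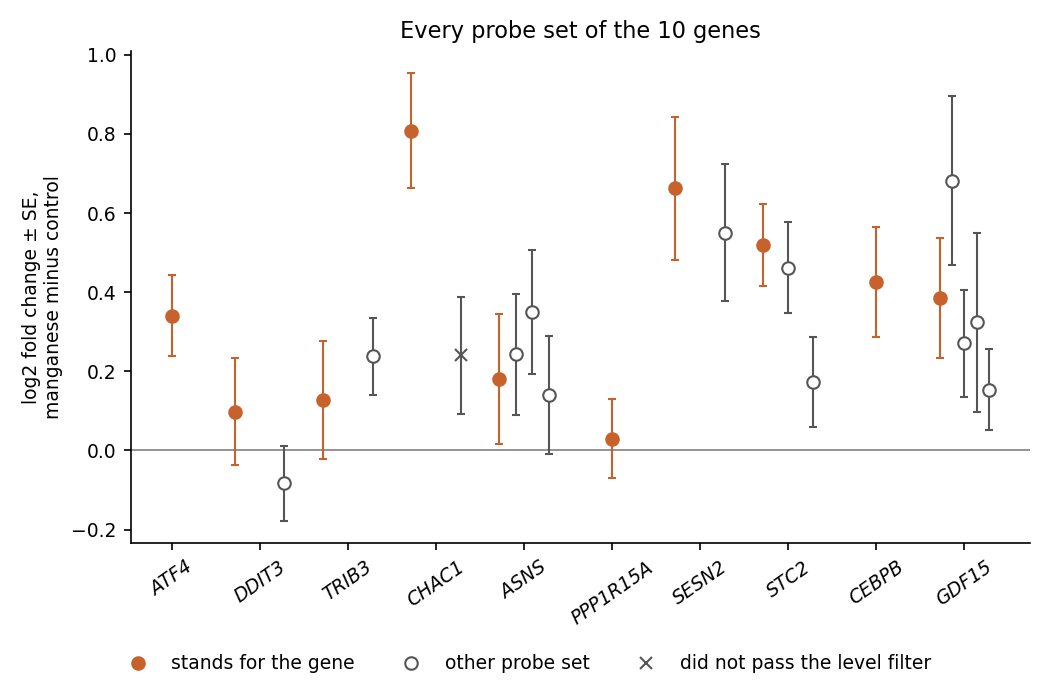
Log2 fold change ± SE (vertical axis, manganese minus control, limma fit over all probe sets) of the 23 probe sets of the 10 genes, with the probe set that stands for each gene filled and the 1 that did not pass the level filter as a cross. Of the 23, 22 lie above 0, and 1 of DDIT3 lies below.

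Tested one by one among 49293 probe sets, 0 of the 23 passed limma's adjusted threshold, against 0.0588% of all probe sets, and 22 of the 23 passed the level filter. In 7 of the 23 the groups were apart with manganese higher, against 8.9% of all probe sets, and in 0 with manganese lower. Probe sets of a gene share a target and are not independent. The 10 genes did not follow a common course over the 6 arrays. SESN2 and CEBPB had a Pearson correlation of 0.99 and ATF4 and STC2 of 0.95, while ASNS stood at 0.0017 with ATF4 and at -0.56 with TRIB3. These are descriptions over 6 arrays that share the difference between groups and the low control 1.

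The gene pattern most like that of CHAC1 over the 6 arrays was that of H3C7, a replication-dependent histone gene with near-identical copies, at a Pearson correlation of 0.996. ENO2, the neuronal enolase, followed at 0.995, CFAP184 at 0.994, and CCDC74A and CLN8 at 0.992 each. Of the tested genes, 72 exceeded 0.95 with CHAC1.

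The family relatives of these genes gave mixed values. Of 11 relatives, 10 were tested and 0 passed, with 3 higher and 1 lower at an unadjusted p under 0.05, where 5.97% of all tested genes were higher and 6.85% lower. CEBPD is 1 of the 3 and would not have passed the level filter without the manganese arrays, so little can be drawn from that count. Without control 3, manganese 1, manganese 2 or manganese 3, 1 was higher. In those fits 532, 428, 577 and 493 of the 13407 tested genes were higher. Without control 1 the count was 3 and without control 2 it was 2, beside 1053 and 1393 of all tested genes. With the 60th percentile filter 1 of 8 was higher, beside 615 of 10002 tested genes. With the mean of the passing probe sets 1 of 10 was, beside 784 of 13407. TRIB2 differed by 0.43 and TRIB1 by -0.67, whereas TRIB3 differed by 0.13. SESN1, a sestrin controlled mainly by p53, differed by -0.57 (95% interval -1.32 to 0.19), whereas SESN2 differed by 0.66. STC1 differed by 0.25 and STC2 by 0.52. CEBPD and ATF5, given above, are counted here as well, and CEBPD lay near the limit of the level filter. CHAC2 differed by -0.12 and PPP1R15B, the constitutive partner of the eIF2 phosphatase, by -0.073. Against control 2 TRIB2 was at 0.67, STC1 at 0.33, TRIB1 at -0.26, SESN1 at -0.16 and PPP1R15B at 0.30 in the other direction. The differences between relatives were not tested.

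Upstream, the list of eIF2 kinases, phosphatase and exchange factor genes had 18 of 20 members tested and 0 called by limma, with 1 higher and 2 lower at an unadjusted p under 0.05 (5.97% and 6.85% of all tested genes). With centring on housekeeping genes 1 was called lower. Of the 18, 14 had negative changes, with a median of -0.10, or -0.084 with 10 negative against control 2. EIF2AK1, the heme-regulated kinase that relays mitochondrial stress, read 11.84, 10.89 and 11.23 in control and 10.56, 10.78 and 10.87 in manganese. Manganese 3 lay just below control 2, so the groups were narrowly apart, with a change of -0.58, and it was at -0.15 against control 2. EIF2B3, a subunit of the exchange factor that phosphorylated eIF2 inhibits, differed by -0.91 (adjusted p 0.258) and by -0.41 against control 2. EIF2B1, another subunit, differed by -0.30 and by -0.12 against control 2. PPP1CB, a catalytic subunit of the phosphatase, differed by 0.54 and by 0.69 against control 2, with overlapping groups. With the mean of the passing probe sets the highest change on the list was 0.42. In that fit 1 was higher and 4 lower at an unadjusted p under 0.05, beside 784 and 889 of 13407 tested genes. EIF2AK3, which encodes PERK, the kinase of the endoplasmic reticulum, differed by -0.0081.

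**Figure D4:**
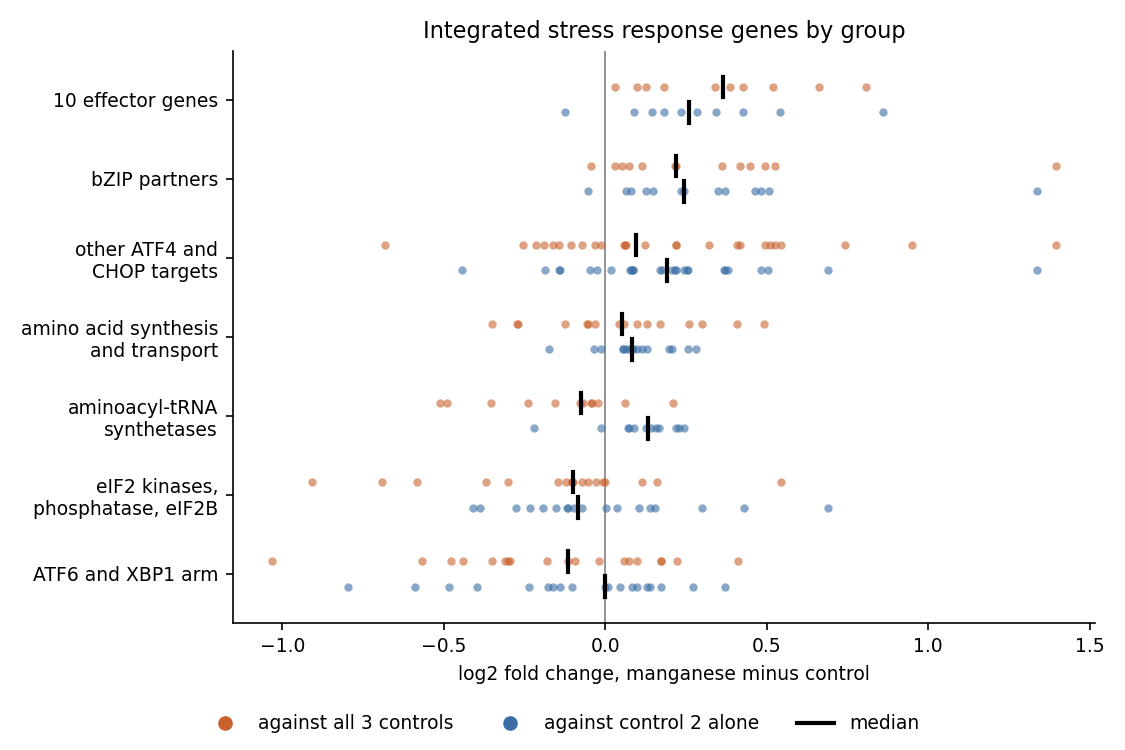
Log2 fold changes (horizontal axis, manganese minus control) of the tested genes of 7 lists, each gene a dot, against all 3 controls (orange) and against control 2 alone (blue), with black bars for the medians. The 10 effector genes have medians of 0.36 and 0.26, and the aminoacyl-tRNA synthetases move from -0.074 to 0.13 with the baseline.

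Other targets of ATF4 and CHOP were fixed as a list of 29, of which 26 were tested. ATF3, which this list shares with the leucine zipper list, was the 1 called. With median centring 2 were called higher, and with centring on housekeeping genes 3 higher and 1 lower. The count was 2 higher without control 2, and 0 without control 3, without any 1 manganese array, against control 2 alone or with spike-in level as a term. Of the 26, 8 were higher and 1 lower at an unadjusted p under 0.05, beside 5.97% and 6.85% of all tested genes, with a median of 0.094, or 0.19 against control 2. The 8 became 5 against control 2 alone and 3 with spike-in level as a term, where the shares of all genes were 4.89% and 2.22%. DDIT4, an mTORC1 inhibitor also induced by hypoxia, read 9.86, 10.24 and 9.83 in control and 10.85, 11.15 and 10.78 in manganese. Its change was 0.95 (adjusted p 0.107), with groups apart, and 0.69 against control 2. SQSTM1, an autophagy receptor, differed by 0.51 and PMAIP1, which encodes the cell death protein NOXA, by 0.74, or 0.38 and 0.37 against control 2. VLDLR, a lipoprotein receptor, differed by -0.68 and by -0.44 against control 2, with control 1 the high array, and TNFRSF10B, the death receptor that CHOP induces, by -0.16. NUPR1, which encodes a stress-induced chromatin protein, differed by -0.014.

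In the amino acid branch the list medians were small. Of 16 tested genes of amino acid synthesis and transport, 0 were called by limma. At an unadjusted p under 0.05, 1 was higher and 1 lower (5.97% and 6.85% of all tested genes). The median was 0.051 with 9 of 16 positive, and -0.017 with 7 positive without control 1. It was 0.083 with 13 positive against control 2, and 0.10 with 15 positive with spike-in level as a term. SLC3A2, the heavy chain of amino acid exchangers, differed by 0.41, PSAT1, an enzyme of serine synthesis, by -0.35, and SLC7A11, the cystine transporter, by 0.057. SHMT2, a mitochondrial enzyme of serine breakdown, differed by 0.49 and by 0.054 against control 2, and SLC7A1, a transporter of cationic amino acids, by -0.27 and by 0.064. Of the 12 aminoacyl-tRNA synthetases 0 were called, with 0 at an unadjusted p under 0.05. Their changes were negative in 10 of 12 with all controls, at a median of -0.074, and positive in 10 of 12 against control 2, at 0.13, so their direction depended on the control arrays used. IARS1 differed by -0.51, GARS1 by -0.49, NARS1 by -0.35 and MARS1 by -0.24, and these were -0.013, 0.088, 0.16 and -0.22 against control 2.

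In the ATF6 and XBP1 arm of the unfolded protein response, which raises chaperones of the endoplasmic reticulum, 19 of 20 genes were tested and 0 were called by limma. At an unadjusted p under 0.05, 6 were lower and 0 higher, against 6.85% and 5.97% of all tested genes, and the median was -0.12, or -0.0017 against control 2. Without control 1, control 3 or manganese 3, 3 of the 19 were lower at that p. In those fits 861, 691 and 718 of the 13407 tested genes were lower. Without manganese 1 or manganese 2 the count was 2, beside 404 and 493 of all tested genes. Without control 2 it was 6, beside 1617 of all tested genes. With the mean of the passing probe sets it was 5, beside 889 of all tested genes. With centring on housekeeping genes 1 was called lower. HSPA5, the chaperone BiP, read 10.26, 9.53 and 9.50 in control and 8.66, 9.02 and 8.52 in manganese. Its groups were apart with a change of -1.03 (adjusted p 0.184), and -0.80 against control 2. With the mean of the passing probe sets the change of HSPA5 was no lower than -0.75, the lowest on the list. HYOU1, another chaperone of that compartment, differed by -0.44 and by -0.40 against control 2. HSP90B1, a further chaperone, differed by -0.57 and by -0.16 against control 2, and ATF6 itself by -0.48 with either baseline. XBP1 differed by 0.074 (95% interval -0.16 to 0.31).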

How the data were processed

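RNA of 6 samples was read on 6 one-colour Affymetrix arrays. The authors deposited log2 signals for 49395 probe sets, which the submitters' processing notes credit to Affymetrix Expression Console and RMA. RMA sets all arrays to one distribution, so a shift shared by most genes is lost. Versions of that software are not given in the sources used.

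Gene names came from the platform annotation, and 102 Affymetrix control probe sets were left out. A probe set passed when at least 3 arrays read it above their own 40th percentile, and the brightest stood for its gene. Manganese was compared with control across the 13407 genes in limma 3.58.1 (R 4.3.3), two-sided, with Benjamini-Hochberg adjustment over all genes and a threshold of 0.05. A second fit took all 49293 probe sets with no filter. Arrays give no counting depth, so their number limits precision. The fit was tested on simulated data.

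The 10 genes, the gene lists and the alternatives were chosen with earlier results of these data known. The text names all 10 genes, and from each list those past the threshold or, where there were none, up to 4 with the smallest p. It also names the 5 genes most correlated with the member of smallest p. Other genes, such as JUN, JDP2, DDIT4, SQSTM1, PMAIP1, VLDLR, DBH, TH, GATA3, THY1, XBP1, EIF2AK3, NUPR1, TNFRSF10B, SLC7A11, TRIB2, SESN1, CHAC2 and PPP1R15B, were named after their values were seen. Promoter sequences are RefSeq's (GRCh38.p14), and motifs were sought with a script. Same-numbered arrays of the 2 groups had deviations correlated at -0.30, 0.15 and -0.27, so the numbers were not taken to pair them.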

Additional observations from a re-analysis of the deposited data

How the results depend on the processing

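Across 16 alternative settings the count of called members stayed at 0 in 15, and was 1 (CHAC1, log2 change 0.82, adjusted p 0.0113) with centring on housekeeping genes. The count of 19 genes over the array became 50 with median centring, 303 with housekeeping centring, 5 against control 2 alone, 0 with spike-in level as a term (limma, 471 at an unadjusted p under 0.05) and 6 with the replicate block. Leaving out each array gave 0 to 43 genes. In the 4 fits with 0 genes, limma had 832 to 1223 at an unadjusted p under 0.05. The replicate block changed the call of none of the 10 genes. The median change of the 10 genes stayed between 0.28 and 0.43 when each array was left out, and was 0.26 against control 2 alone. Signs turned for TRIB3 (-0.12 against control 2 alone, -0.091 with spike-in level as a term, and -0.037 to 0.25 when each array was left out, with the lowest without control 1), for PPP1R15A (-0.0069 to 0.097 when each array was left out, negative without control 1 and without manganese 2) and for DDIT3 (-0.040 to 0.21 when each array was left out, negative without manganese 2). The cause was not tested. The other 7 genes stayed positive in all 17 alternatives run on them. DDIT3 was too dim for the 60th percentile filter and has no value there. Signal over background limits what can be said of DDIT3 and of the second CHAC1 probe set.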

Other observations

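Mitochondrial stress targets, which the response can also reach, were tested as a list of 8, of which 7 had a value. By limma 0 of the 7 were called, where 0.142% of all tested genes were, with 0 at an unadjusted p under 0.05. Of all tested genes, 5.97% were higher and 6.85% lower at that p. The median change was -0.16 with all controls and 0.01 against control 2. LONP1, a mitochondrial protease known as an ATF4 target, differed by 0.32 and by 0.077 against control 2, and HSPD1, the mitochondrial chaperonin, by -0.52 and by -0.15. HSPA9, a mitochondrial chaperone, differed by -0.44 and by -0.11 against control 2, and CLPP, a mitochondrial protease, by 0.28 and by 0.013. Of 13 housekeeping genes used for centring, 10 were tested and 0 called by limma. At an unadjusted p under 0.05, 1 was higher (PGK1, 0.31) and 1 lower (PPIA, -0.38), beside 5.97% and 6.85% of all tested genes. HPRT1 differed by 0.45 and ACTB by -0.19.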
